A study of Drosophila melanogaster with 6 samples.

Results

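Glutathione S-transferases (GSTs) and antioxidant enzymes were compared between SIN3 187HA cells and S2 cells of *Drosophila melanogaster*. The genes were chosen by symbol. All cytosolic GST genes with a class letter and a number were taken, together with *Sod*, *Sod2*, *Cat*, *Trxr-1*, *Trxr-2*, *PHGPx*, *Jafrac1*, *Jafrac2* and *cnc*. They filled 43 of the 14540 rows of the expression table, with 34 GST rows and 9 antioxidant rows. *GstD1* and *GstD9* share 1 row, so that 44 genes are covered. *Jafrac1* and *Jafrac2* are now called *Prx2* and *Prx4*, *PHGPx* is *Gtpx* and *Sod* is *Sod1* in RefSeq.

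RNA-seq was performed on total RNA from both lines. S2 is a hemocyte-like cell line that derives from late embryos. The labels give the same wild type genotype for both lines. SIN3 187HA cells are S2 cells with a stably integrated, HA-tagged transgene of the SIN3 isoform for which the line is named, and the transgene is transcribed from the copper-inducible metallothionein promoter. Both lines were given CuSO4, at 0.07 µM according to the labels (the study's methods print the unit as M), with 48 h of treatment stated for the first replicate of each. Copper was thus present on both sides of the comparison. The controls were untransfected. The culture methods list gentamycin for S2 cells, and penicillin, streptomycin and Geneticin for the stable lines. In the study's blots the isoform that predominates in untransfected cells was almost lost from the transgenic line. The transgene product, the loss of that isoform, the antibiotics and any other difference between the 2 lines cannot be told apart. The authors combined the 3 replicates of each group, and each gene has a single FPKM (fragments scaled to transcript length and to the number of mapped fragments) per group. The spread between replicates is therefore unknown and no test was made here. Levels in bulk RNA also do not tell fewer expressing cells from less RNA per cell.

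GSTs attach the tripeptide glutathione to reactive compounds such as insecticides and products of lipid oxidation, and some reduce peroxides. Insects carry large Delta and Epsilon classes, most of whose genes sit in tandem arrays, beside the widely conserved Omega, Sigma, Theta and Zeta classes. Superoxide dismutases turn superoxide into hydrogen peroxide, which catalase, peroxiredoxins and glutathione peroxidases remove. Flies have no glutathione reductase, and thioredoxin reductase takes over that role. The factor Cnc, the fly homolog of Nrf2, drives many of these genes with its partner Maf-S, while Keap1 holds it in check. Copper ions can feed reactions that make reactive oxygen species, and copper is also a cofactor of *Sod*.

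*Sin3A* had 2319 FPKM in SIN3 187HA cells and 56.9 FPKM in S2 cells, as the labels require. FPKM summed over all rows to 791598 in SIN3 187HA cells and 817054 in S2 cells. Steps between the lowest values correspond to about 15900000 fragments per library in SIN3 187HA cells and 15300000 in S2 cells, if a group value is the mean of 3 libraries. Of 9 hemocyte markers, *Hml* was under 1 FPKM in both groups, 5 were at least 2-fold lower in SIN3 187HA cells and 1 was at least 2-fold higher. The higher one was *ush*, which shares its row with *MED15*. Among all rows with a mean of at least 1 FPKM, 10.9% were higher and 10.9% were lower. *He*, a hemocyte surface marker, had 72.7 FPKM in SIN3 187HA cells and 766 FPKM in S2 cells. The blood cell factor *srp*, which shares its row with *CR44133*, had 77.0 and 86.9 FPKM in SIN3 187HA and S2 cells. Of 12 markers of fat body, muscle, neurons and germline, 9 had a mean of both groups under 1 FPKM, and of the other 3 *elav* was at least 2-fold higher in SIN3 187HA cells. The hemocyte markers summed to 463 FPKM in SIN3 187HA cells and 1296 FPKM in S2 cells, where *He* was the largest part. The markers of the other cell types summed to 22.1 and 25.4 FPKM in SIN3 187HA and S2 cells. The part of this marker shift in the values below was not tested.

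Fold changes are given as log2 of (FPKM + 1) in SIN3 187HA cells over (FPKM + 1) in S2 cells. The added 1 FPKM understates the change of genes with low levels. A gene was counted as higher or lower when it differed at least 2-fold on that scale and its mean FPKM over both groups was at least 1. This minimum was met by 36 of the 43 rows. The other 7 were *GstD8*, *GstD11*, *GstE1*, *GstE10*, *GstE14*, *GstZ2* and *Trxr-2*.

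In SIN3 187HA cells 5 of the 36 genes were higher and 7 were lower. Among all 8202 rows with a mean of at least 1 FPKM, 10.9% were higher and 10.9% were lower. At these shares 36 rows would hold 3.92 genes in each direction. The count of higher genes is above that number by about 1 gene and the count of lower genes by about 3 genes. Neither gap was tested, and their size changes with the filter and the pseudocount. The median log2 fold change of the 36 rows was -0.16, with quartiles at -0.96 and 0.38, against -0.04 for all 8202 rows, with quartiles at -0.46 and 0.42. The higher genes were *GstD5*, *GstO1*, *GstE11*, *Cat* and *GstE12*. The lower genes were *GstO3*, *Jafrac1*, *GstE9*, *GstT4*, *GstE8*, *GstD2* and *GstD10*. Of the 36 genes, 16 differed by less than 1.5-fold. Both directions occurred within the Delta, Epsilon and Omega classes and among the antioxidant enzymes.

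**Figure D1:**
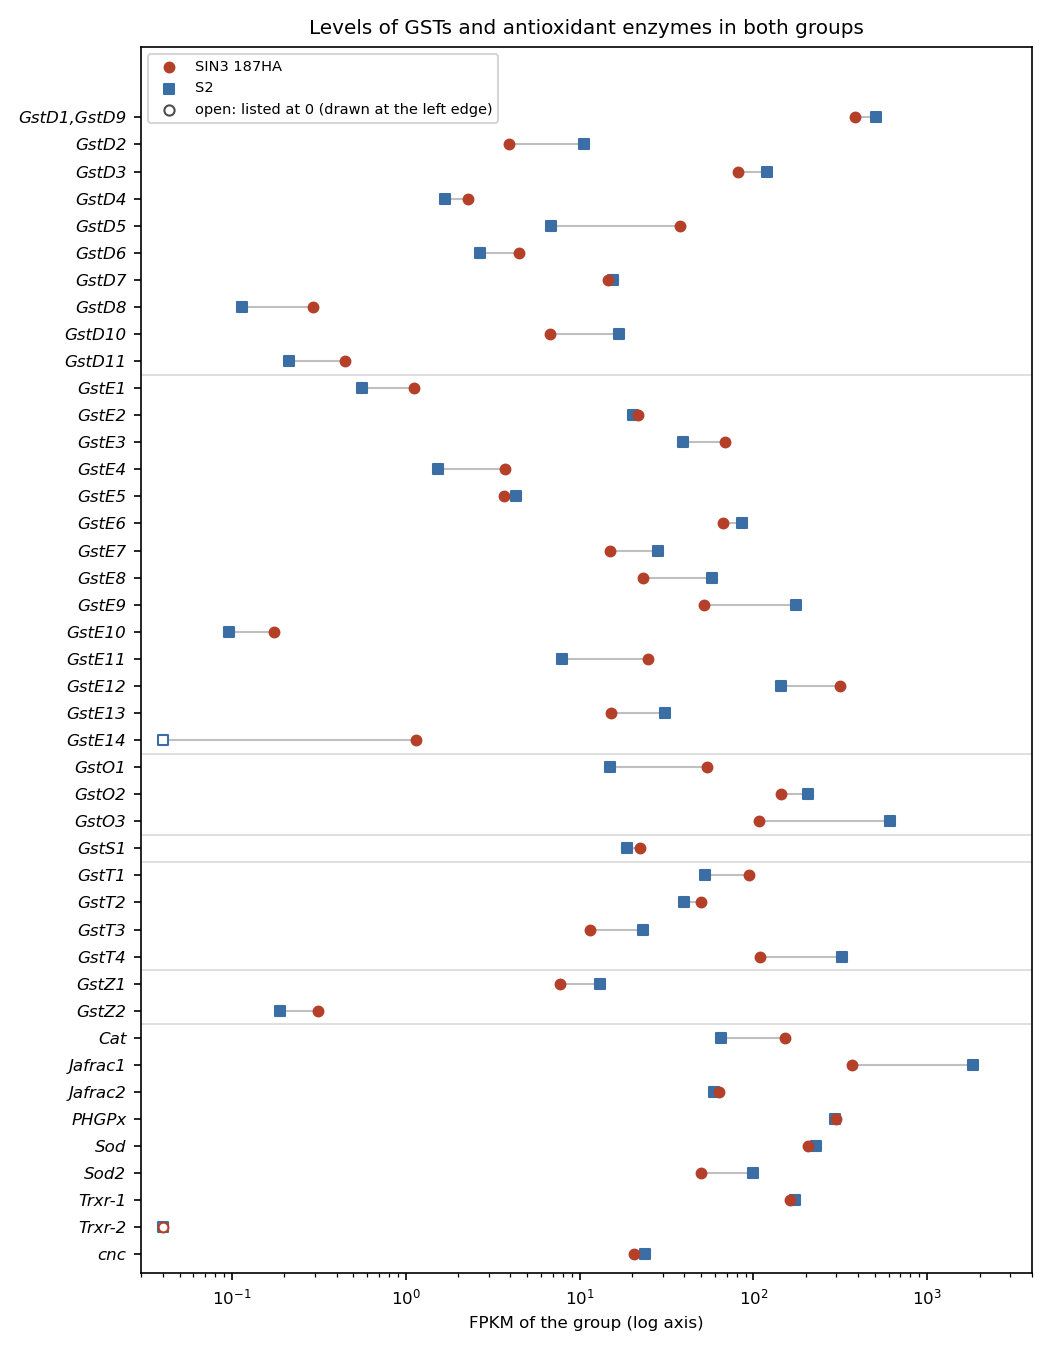
FPKM of each group (log axis) for the 43 rows, with circles for SIN3 187HA cells and squares for S2 cells. GST classes run from Delta at the top to Zeta, with the antioxidant enzymes at the bottom. Each point is 1 value combined from 3 replicates, so no error bar can be drawn. Wide gaps are seen for *GstO3* (107 against 614 FPKM), *GstD5* (38.0 against 6.81 FPKM) and *Jafrac1* (366 against 1826 FPKM).

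The RNA level of *cnc* itself differed little, and Cnc protein was not measured. *cnc* had 20.5 FPKM in SIN3 187HA cells and 23.8 FPKM in S2 cells, a log2 fold change of -0.20. Its locus also holds *Ir* and *fzo*. *maf-S* had 65.9 FPKM in SIN3 187HA cells and 85.9 FPKM in S2 cells. *Keap1* had 10.6 FPKM in SIN3 187HA cells and 20.5 FPKM in S2 cells, a log2 fold change of -0.88 that stayed under the 2-fold limit. All 3 regulators thus had the lower value in SIN3 187HA cells, none of them by 2-fold. The changes of *cnc* and *maf-S* (-0.38) lay within the quartiles of all rows with a mean of at least 1 FPKM (-0.46 and 0.42). Without replicate values a common direction of the 3 cannot be stated.

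Among the antioxidant enzymes the peroxiredoxin *Jafrac1* stood out. It encodes the cytosolic peroxiredoxin that uses thioredoxin to remove hydrogen peroxide, at chrX:13223881-13226030 of dm3. *Jafrac1* had 366 FPKM in SIN3 187HA cells and 1826 FPKM in S2 cells, a log2 fold change of -2.31. It held rank 245 of all rows in SIN3 187HA cells and rank 89 in S2 cells. It remained the most abundant of the 9 antioxidant enzymes in SIN3 187HA cells, at 1.24 times the level of *PHGPx*, against 6.18 times in S2 cells.

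Catalase differed the other way. *Cat*, at chr3L:18815704-18821288, had 152 FPKM in SIN3 187HA cells and 64.6 FPKM in S2 cells, a log2 fold change of 1.23. *Sod2*, the mitochondrial manganese superoxide dismutase at chr2R:12660376-12661440, had 50.0 FPKM in SIN3 187HA cells and 98.8 FPKM in S2 cells. Its log2 fold change of -0.97 was just short of the limit. Catalase therefore had the higher level relative to cytosolic *Sod* in SIN3 187HA cells, with a ratio of 0.739 against 0.282 in S2 cells, while the ratio of *Sod2* to *Sod* was 0.242 against 0.431.

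The other 5 antioxidant members with a mean of at least 1 FPKM differed by less than 1.5-fold. *Sod*, the copper and zinc superoxide dismutase, had 206 FPKM in SIN3 187HA cells and 229 FPKM in S2 cells. *Trxr-1*, the main thioredoxin reductase, had 162 FPKM in SIN3 187HA cells and 174 FPKM in S2 cells. *PHGPx*, a glutathione peroxidase homolog, had 297 and 296 FPKM in SIN3 187HA and S2 cells. *Jafrac2*, a peroxiredoxin of the secretory pathway, had 63.1 FPKM in SIN3 187HA cells and 59.5 FPKM in S2 cells, and *cnc* is given above. These levels were close to each other on both sides, yet without replicate values it cannot be said that they were the same. *Trxr-2*, the second thioredoxin reductase gene, was listed at 0 in both groups. Summed over the 9 rows, the antioxidant enzymes came to 1317 FPKM in SIN3 187HA cells and 2771 FPKM in S2 cells. *Jafrac1* made up that gap, since the other 8 rows summed to 951 FPKM in SIN3 187HA cells and 946 FPKM in S2 cells.

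The 34 GST rows summed to 1745 FPKM in SIN3 187HA cells and 2581 FPKM in S2 cells, a ratio of 0.676. A single gene, *GstO3*, carried much of this, and without it the ratio was 0.833. The Omega class, whose enzymes reduce dehydroascorbate and mixed disulfides, summed to 306 FPKM in SIN3 187HA cells and 834 FPKM in S2 cells. The Theta class summed to 264 FPKM in SIN3 187HA cells and 440 FPKM in S2 cells. The Delta class summed to 535 FPKM in SIN3 187HA cells and 679 FPKM in S2 cells. The Epsilon class had nearly equal sums, with 610 FPKM in SIN3 187HA cells and 596 FPKM in S2 cells, although 2 of its genes were higher and 2 lower. The Epsilon class was thus the largest by sum in SIN3 187HA cells, with 34.9% of all GST FPKM against 23.1% in S2 cells. The Omega class was the largest in S2 cells, with 17.5% in SIN3 187HA cells against 32.3% in S2 cells.

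**Figure D2:**
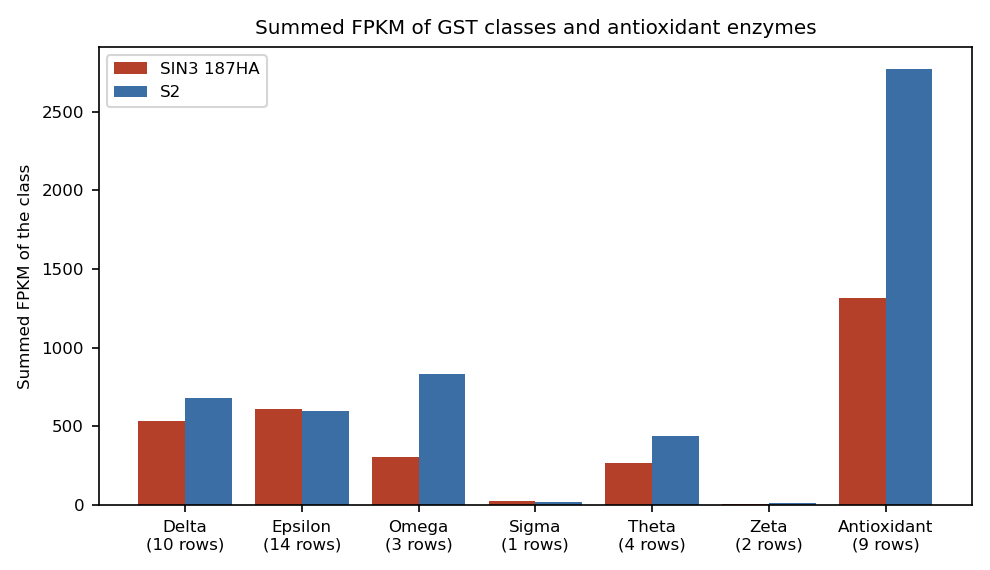
Summed FPKM of each GST class and of the antioxidant enzymes, with SIN3 187HA cells on the left and S2 cells on the right of each pair. The numbers of rows are given under the names. The Epsilon sums are nearly equal (610 against 596 FPKM), while the Omega sum is 306 against 834 FPKM and the antioxidant sum 1317 against 2771 FPKM.

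The order of the GSTs by level changed with these sums. In SIN3 187HA cells the row of *GstD1* and *GstD9* came first with 383 FPKM, followed by *GstE12* with 313 FPKM, *GstO2* with 144 FPKM, *GstT4* with 109 FPKM and *GstO3* with 107 FPKM. In S2 cells *GstO3* came first with 614 FPKM, followed by the row of *GstD1* and *GstD9* with 506 FPKM, *GstT4* with 324 FPKM, *GstO2* with 205 FPKM and *GstE9* with 176 FPKM. Each order holds within 1 group, where FPKM values are per length. Neighbours in it such as *GstT4* and *GstO3* in SIN3 187HA cells are too close to be ordered without replicate values.

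The 3 numbered Omega genes lie within 5.98 kb on chromosome arm 3L and differed from each other more than the members of any other array. *GstO3*, at chr3L:8511985-8513395, had 107 FPKM in SIN3 187HA cells and 614 FPKM in S2 cells, a log2 fold change of -2.50 and the lowest of all 36 genes. *GstO1*, at chr3L:8516842-8517966, had 53.9 FPKM in SIN3 187HA cells and 14.9 FPKM in S2 cells, a log2 fold change of 1.79. *GstO2* lies between them and had 144 FPKM in SIN3 187HA cells and 205 FPKM in S2 cells, under the limit. *GstO3* thus exceeded *GstO1* by 1.99 times in SIN3 187HA cells and by 41.2 times in S2 cells. The fourth gene of the class, *se*, is not among the numbered GSTs. It makes a precursor of the red eye pigments and shares its locus with *GstO2*, and it had 4.82 FPKM in SIN3 187HA cells and 6.05 FPKM in S2 cells.

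The Epsilon array on chromosome arm 2R holds *GstE10* and then *GstE1* to *GstE9* within 14.9 kb, from chr2R:14284143 to 14299024. *GstE1* to *GstE9* are transcribed from the same strand and have 1 exon each in the later BDGP6 annotation. *GstE10* and *GstE1* were low, with 0.174 and 1.12 FPKM in SIN3 187HA cells and 0.0966 and 0.561 FPKM in S2 cells. Along the next 8 genes the sign of the change switched once. *GstE2* had 21.7 FPKM in SIN3 187HA cells and 20.4 FPKM in S2 cells. *GstE3* had 68.6 FPKM in SIN3 187HA cells and 39.4 FPKM in S2 cells, with a log2 fold change of 0.78. *GstE4* had 3.73 FPKM in SIN3 187HA cells and 1.53 FPKM in S2 cells, with a log2 fold change of 0.90. These 3 genes had the higher value in SIN3 187HA cells.

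From *GstE5* onwards each gene had the lower value in SIN3 187HA cells, and the log2 fold change was more negative with each gene. *GstE5* had 3.69 FPKM in SIN3 187HA cells and 4.31 FPKM in S2 cells, a log2 fold change of -0.18. *GstE6*, whose log2 fold change was -0.36, had 66.4 FPKM in SIN3 187HA cells and 85.5 FPKM in S2 cells. *GstE7* had 15.0 FPKM in SIN3 187HA cells and 28.2 FPKM in S2 cells, with -0.87. The last 2 genes passed the limit. *GstE8*, at chr2R:14295339-14296067, had 23.2 FPKM in SIN3 187HA cells and 58.1 FPKM in S2 cells, a log2 fold change of -1.29. *GstE9* had 52.0 FPKM in SIN3 187HA cells and 176 FPKM in S2 cells, a log2 fold change of -1.74. *GstE9* was 0.758 times as abundant as *GstE3* in SIN3 187HA cells and 4.47 times in S2 cells. *GstE9* shares its locus with *imd*, an adaptor of innate immune signalling, which had 31.0 FPKM in SIN3 187HA cells and 24.9 FPKM in S2 cells and so was not lower with it. The 24 nearest rows outside the members had a median log2 fold change of -0.02, and none of them was 2-fold higher or lower. The order along the array was noticed in the values and was not tested, and reads shared between neighbouring copies may have been divided among them.

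**Figure D3:**
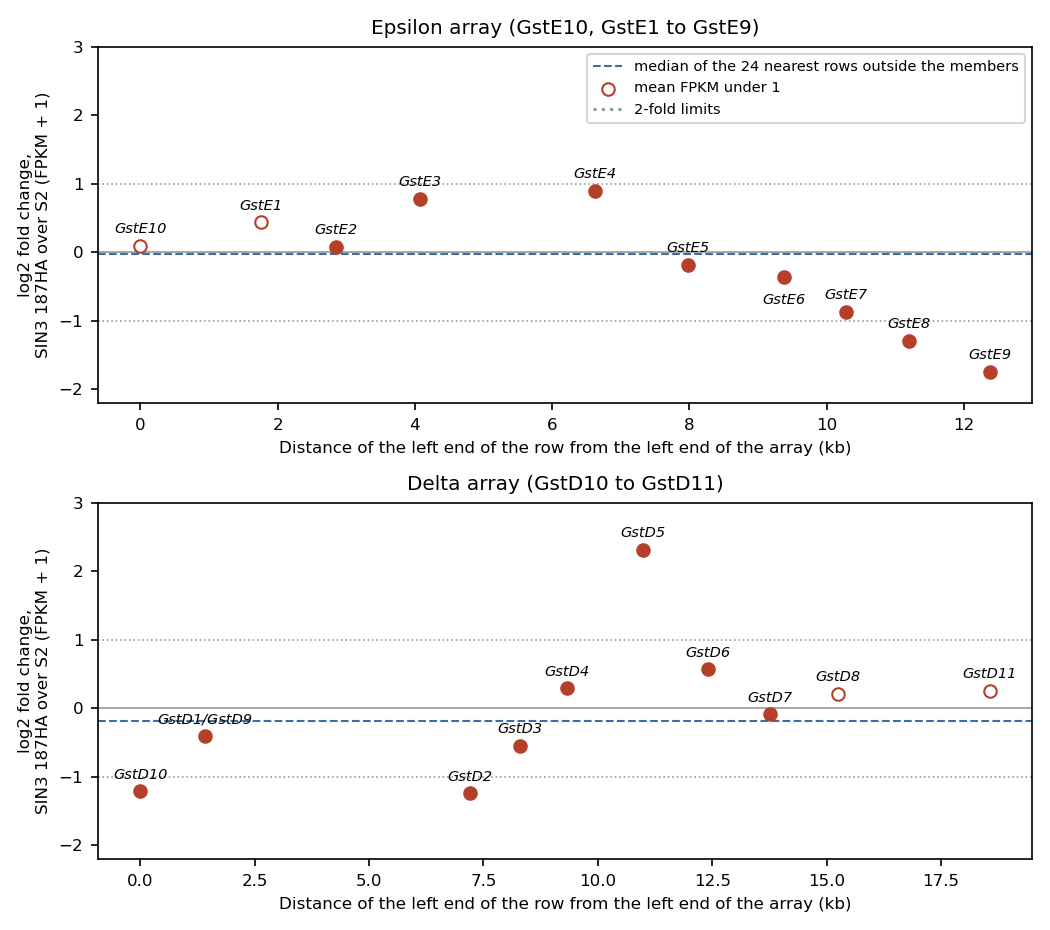
Log2 fold change (SIN3 187HA over S2, FPKM + 1) of the genes of the Epsilon array (top) and the Delta array (bottom) against their distance along the array in kb. Open circles have a mean under 1 FPKM, the dashed line is the median of the 24 nearest other rows and dotted lines mark 2-fold. In the Epsilon array the values run downwards from *GstE4* (0.90) to *GstE9* (-1.74), and in the Delta array *GstD5* (2.32) stands between genes under the limit.

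Outside the array, *GstE11* lies further along 2R at chr2R:14391115-14392349 and had 24.7 FPKM in SIN3 187HA cells and 7.92 FPKM in S2 cells, a log2 fold change of 1.53. *GstE12*, at chr2R:20650687-20655697, had 313 FPKM in SIN3 187HA cells and 143 FPKM in S2 cells, a log2 fold change of 1.12. *GstE12* was the most abundant gene of its class in SIN3 187HA cells, at 6.03 times the level of *GstE9*, whereas *GstE9* was the most abundant in S2 cells, where the same ratio was 0.812. *CG3894*, which shares the locus of *GstE12*, had 21.6 FPKM in SIN3 187HA cells and 12.7 FPKM in S2 cells. *GstE13* had 15.2 FPKM in SIN3 187HA cells and 31.0 FPKM in S2 cells, with a log2 fold change of -0.98 just under the limit. *GstE14*, known as *noppera-bo* for its role in making the molting hormone ecdysone, had 1.15 FPKM in SIN3 187HA cells and was listed at 0 in S2 cells. Its value rests on about 44.2 fragments in the 3 libraries together.

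The Delta array on chromosome arm 3R covers 10 rows within 20.8 kb, from *GstD10* at chr3R:8190496-8191440 to *GstD11*. *GstD1* metabolizes DDT and is widely used as a reporter of Cnc activity. Its row, shared with *GstD9*, had 383 FPKM in SIN3 187HA cells and 506 FPKM in S2 cells, a log2 fold change of -0.40. *GstD5*, at chr3R:8201486-8202136, had 38.0 FPKM in SIN3 187HA cells and 6.81 FPKM in S2 cells, a log2 fold change of 2.32 and the highest of all 36 genes. The genes on either side of it were under the limit. *GstD4* had 2.29 FPKM in SIN3 187HA cells and 1.68 FPKM in S2 cells, which correspond to about 57.3 and 40.4 fragments. *GstD6* had 4.47 FPKM in SIN3 187HA cells and 2.67 FPKM in S2 cells.

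In the left part of the Delta array the values were lower in SIN3 187HA cells. *GstD10* had 6.77 FPKM in SIN3 187HA cells and 17.0 FPKM in S2 cells, a log2 fold change of -1.21. *GstD2*, at chr3R:8197693-8198426, had 3.90 FPKM in SIN3 187HA cells and 10.5 FPKM in S2 cells, a log2 fold change of -1.24. *GstD3* followed in the same direction without passing the limit, with 81.3 FPKM in SIN3 187HA cells and 119 FPKM in S2 cells. At the right end *GstD7* had 14.6 FPKM in SIN3 187HA cells and 15.6 FPKM in S2 cells. *GstD8* and *GstD11* were below 0.5 FPKM in both groups. *GstD5* was less abundant than *GstD2* and *GstD10* in S2 cells, at 0.646 and 0.401 times their levels, and more abundant in SIN3 187HA cells, at 9.73 and 5.61 times.

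Of the 4 Theta genes only *GstT4* passed the limit. At chrX:13298789-13303249, it had 109 FPKM in SIN3 187HA cells and 324 FPKM in S2 cells, a log2 fold change of -1.57. *GstT3*, also on the X chromosome, had 11.4 FPKM in SIN3 187HA cells and 23.1 FPKM in S2 cells, with a log2 fold change of -0.96. The adjacent pair *GstT1* and *GstT2* on 2R had the higher values in SIN3 187HA cells, 94.4 and 49.7 FPKM, against 52.7 and 39.7 FPKM in S2 cells. The Zeta enzyme maleylacetoacetate isomerase acts in tyrosine breakdown, and *GstZ1* had 7.76 FPKM in SIN3 187HA cells and 13.1 FPKM in S2 cells. *GstZ2* was at 0.315 FPKM in SIN3 187HA cells and 0.188 FPKM in S2 cells. The one Sigma gene, *GstS1*, whose product clears the lipid oxidation product 4-hydroxynonenal, had 22.4 FPKM in SIN3 187HA cells and 18.7 FPKM in S2 cells. Both X-linked Theta genes were thus lower and both 2R genes higher in value, and only *GstT4* was past the limit on the log2 scale of FPKM + 1. A link to chromosomal position was not tested and cannot be read from 4 genes.

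The surroundings of the 12 genes past the limit were then examined, to give the level of change around each of them. The 24 nearest rows of each gene, leaving out the members, gave a median log2 fold change. For 11 of the 12 genes the difference from that median was itself at least 2-fold. The 12 genes had been chosen for a 2-fold difference, so that a high count was to be expected, and among all 1784 rows past the limit 75.8% differed at least 2-fold from their own neighbours. *GstD2*, *GstD5* and *GstD10* share 1 set of neighbours, as do *GstE8* and *GstE9*. The stretch of neighbours of *GstE11* overlaps that of *GstE8* and *GstE9*. The stretches of *GstO3* and *GstO1* overlap, and so do those of *Jafrac1* and *GstT4*. The medians within each such group are therefore not separate observations. The largest departures were those of *GstD5* (2.50 above the median on the log2 scale), *GstO3* (-2.41) and *GstO1* (1.84). The exception was *GstT4*, whose neighbours had a median of -0.85, so that it lay -0.72 from them. *Jafrac1* lies 72.8 kb from *GstT4* on the X chromosome, and its neighbours had a median of -0.93, with 21 of the 24 below 0 and 11 at least 2-fold lower. *Jafrac1* was still lower than this median, with a log2 difference of -1.38. *Sod2* also lay among lower genes, with a neighbour median of -0.59. The part of the surroundings in the values of these 3 genes was not tested.

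**Figure D4:**
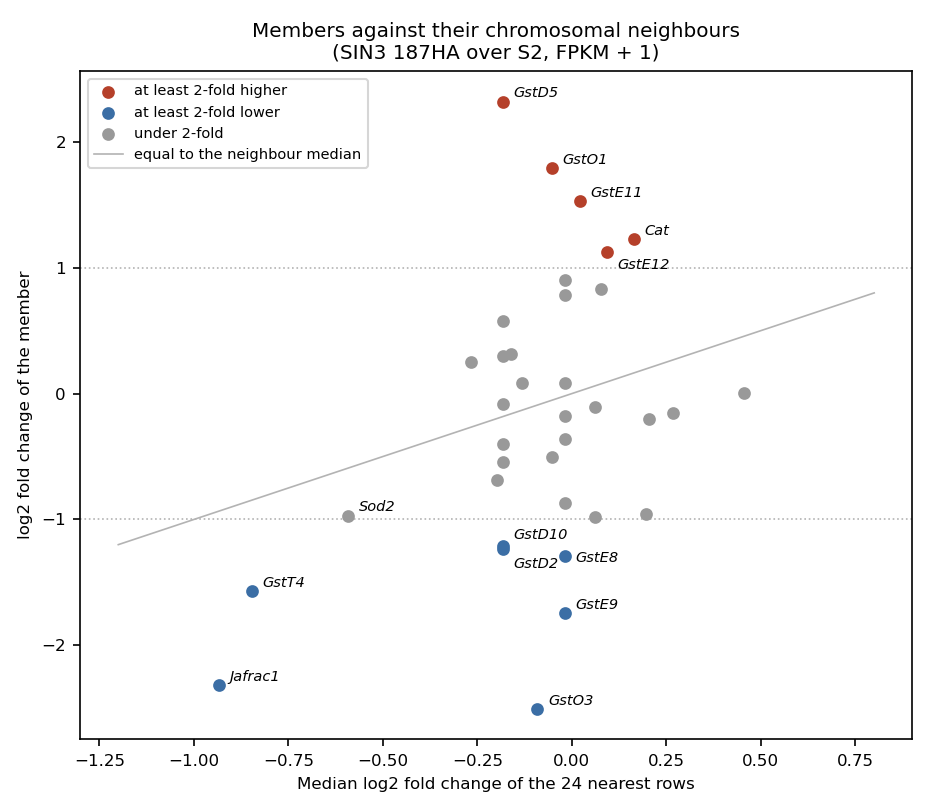
Log2 fold change of the 36 members with a mean of at least 1 FPKM (vertical axis) against the median of their 24 nearest rows (horizontal axis), both SIN3 187HA over S2. The sloping line marks equality and the dotted lines 2-fold. *Jafrac1* and *GstT4* lie at neighbour medians of -0.93 and -0.85, while *GstO3*, *GstO1* and *GstD5* lie at neighbour medians of -0.09, -0.05 and -0.18.

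Further redox genes were taken from a list. It holds other genes of the glutathione and thioredoxin systems, and also regulators of Cnc, NADPH-supplying enzymes, ferritins, an autophagy receptor and the glutamine synthetase *Gs1*. The list has 31 rows, of which 26 had a mean of at least 1 FPKM. Of these 5 (19.2%) were higher in SIN3 187HA cells, beside the background of 10.9%, and 0 were lower. With a mean of at least 10 FPKM the list had 3 higher genes. The gap to the background was not tested. *Gclm*, the modifier subunit of the enzyme that starts glutathione synthesis, had 51.2 FPKM in SIN3 187HA cells and 23.9 FPKM in S2 cells. The catalytic subunit *Gclc* was under the limit, with 49.5 FPKM in SIN3 187HA cells and 64.0 FPKM in S2 cells. The membrane-bound *Mgstl*, a microsomal GST unrelated in sequence to the cytosolic classes, had 357 FPKM in SIN3 187HA cells and 173 FPKM in S2 cells. It was thus close to the most abundant cytosolic GST row in SIN3 187HA cells. *Gs1*, a glutamine synthetase, had 24.2 FPKM in SIN3 187HA cells and 1.16 FPKM in S2 cells, a log2 fold change of 3.54.

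The other 2 higher genes of the list were 1-cysteine peroxiredoxins that are close copies of each other on 2R. *Prx2540-1* had 4.54 FPKM in SIN3 187HA cells and 0.0587 FPKM in S2 cells, and *Prx2540-2* had 11.1 FPKM in SIN3 187HA cells and 0.271 FPKM in S2 cells. Reads may have been divided between the 2 copies. Both met the minimum mean only through SIN3 187HA cells, the group where they were high. They differed in the direction opposite to *Jafrac1*, at far lower levels. The other peroxiredoxins of the list, *Prx3* of the mitochondria, *Prx5* and *Prx6005*, were under the limit, with log2 fold changes of -0.42, -0.22 and 0.01. *Prx5* shares its row with *CG7215*. *Trx-2*, the main thioredoxin, had 662 FPKM in SIN3 187HA cells and 598 FPKM in S2 cells. The NADPH-supplying enzymes *Zw*, *Pgd*, *Idh* and *Men* were all under the limit, between -0.77 and 0.38. The 3 rows of glutathione synthetase (*GS*) and that of *Grx-1* were listed at 0 in both groups. *GS* has a row on the unplaced sequence Uextra, and its rows on the X chromosome are shared with *CG32495*. Whether its values of 0 reflect absent RNA or reads that could not be placed was not tested.

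Because both lines were treated with copper, the metallothioneins, which bind excess copper, were read as well. *MtnA* had 21275 FPKM in SIN3 187HA cells and 19120 FPKM in S2 cells, a log2 fold change of 0.15. *MtnB* had 2426 FPKM in SIN3 187HA cells and 349 FPKM in S2 cells. *MtnD* and *MtnE* had lower values in SIN3 187HA cells, 1024 and 667 FPKM, against 1489 and 1148 FPKM in S2 cells. *MtnC* was listed at 0 in SIN3 187HA cells and had 0.206 FPKM in S2 cells. Of the whole list of 10 copper genes, 9 had a mean of at least 1 FPKM, 3 were higher (*MtnB*, the chaperone *Atox1* and the importer *Ctr1B*) beside 10.9% of all rows, and 0 were lower. *Atox1* had 30.9 FPKM in SIN3 187HA cells and 9.44 FPKM in S2 cells. *Ctr1B* only just met the limit at a low level, with 2.04 FPKM in SIN3 187HA cells and 0.518 FPKM in S2 cells. It met the minimum mean only through SIN3 187HA cells, the group where it was high. The log2 fold changes of the 4 abundant metallothioneins thus lay on both sides of 0. Only *MtnB* (2.79) was past the limit, while *MtnD* (-0.54) and *MtnE* (-0.78) were under it. Without replicate values it cannot be stated whether the 4 share a direction, and their part in the GST values was not tested.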

How the data were processed

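Total RNA of S2 and SIN3 187HA cells was sequenced as 2 x 50 bp paired reads from TruSeq libraries, 3 biological replicates each. The authors used Tophat with Bowtie2 for alignment to dm3, Cufflinks for levels over RefSeq genes, and cuffdiff. Tool versions are not given in the sources used here. The authors deposited 1 FPKM value per gene and group, scaled by cuffdiff, with the replicates combined, so that replicate spread is lost. Their own fold changes, test statistics, p-values and q-values are in the table and were not used. Group mapping followed the sample titles and the column names.

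Here, log2((SIN3 187HA FPKM + 1)/(S2 FPKM + 1)) was computed for 14540 rows (Python 3.11.15, pandas 2.3.3) and read at a fold of 2 and a mean FPKM of at least 1. Functions were tested with planted changes. These were fold changes in well expressed rows of the real S2 values and a shifted run of neighbouring rows. Rows with low levels were not part of that check. Start coordinates were made 1-based. A row's locus can hold several genes, which applies to 9 members, and reads of overlapping genes and of near-identical copies may have been divided between rows. Strand, exon counts and transcript lengths came from the BDGP6 annotation, matched by symbol. Fragments were estimated from the lowest values of 1975 single-transcript genes, assuming 200-nt fragments. The 3 rows that cuffdiff marked as holding too many fragments are listed at 0 in SIN3 187HA cells, and none is a member.

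Genes named are all members, the listed pathway genes past the limit, and, by rule, *Keap1*, *maf-S*, *Gclc*, *Gclm*, the metallothioneins and *Sin3A*. *se*, *Trx-2*, *elav*, *Atox1*, *Ctr1B*, the NADPH enzymes, *GS*, *Grx-1* and other peroxiredoxins were named after their values were seen. So were *Hml*, *He*, *srp*, *ush* and genes sharing a row or a locus. Members and lists were chosen with earlier results of these data known. Alternative pseudocounts, filters, fold limits, centring and neighbour windows were tried. Promoter motifs and protein identities were not analysed here.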

Additional observations from a re-analysis of the deposited data

How the results depend on the processing

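No paired analysis was possible because the table holds 1 combined value per group, and for the same reason no replicate could be left out. The 5 higher and 7 lower members were again 5 and 7 with centring and with rows of 1 gene only. With a fold limit of 1.5 they were 8 and 12 (22.2% and 33.3%), beside 1612 and 1636 of all rows (19.7% and 19.9%). With a limit of 3 they were 2 and 3 (5.56% and 8.33%), beside 485 and 474 (5.91% and 5.78%). These shifts follow from the limit itself. The redox list had 6 higher and 4 lower genes at 1.5-fold and 3 higher at 3-fold. With a mean of at least 10 FPKM, 5 of 31 members were higher and 6 lower (16.1% and 19.4%), beside 435 and 565 of 5966 rows (7.29% and 9.47%), and the redox list had 3 higher. With no filter 6 of 43 members were higher, *GstE14* among them, and 7 lower (14.0% and 16.3%), beside 6.59% and 6.35% of all rows. The members' median log2 fold change was then 0, since the 7 rows that entered were all at or above 0. With a pseudocount of 0.1 FPKM *GstE4* (1.23) passed the limit on the higher side, and *GstE13* (-1.02) and *GstT3* (-1.01) passed it on the lower side, and no other member's call changed. This made 6 higher and 9 lower members (16.7% and 25%), beside 12.9% and 12.3% of all rows. Centring shifted values by 0.04 and changed no member's call. Leaving out the rows with too many fragments, chosen after the data were seen, left 892 higher and 890 lower. With 10 neighbours, 11 of 12 genes again differed at least 2-fold from theirs. Promoter windows were not run. Without replicate values, members near the limit, such as *Sod2*, cannot be placed on either side of it.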
